A study of Mus musculus with 2 samples.

Results

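The Hox clusters of the mouse genome carry a small set of microRNA (miRNA) genes between their homeobox genes, and the 6 described here were Mir10a, Mir10b, Mir196a-1, Mir196a-2, Mir196b and Mir615. They were picked by name from the 1973 miRNA genes of the count tables. The data came from 2 small RNA libraries of heart tissue from mouse embryos of the strain B6NCrl at 14.5 days, with no treatment or genetic change named and no second tissue or stage. The libraries, called replicate 2 and replicate 1 after their labels, were collected on 17 July and 15 July 2014, and each was described as a heart from 1 pup, while the sex entry named pooled males and females. The labels do not settle which of these holds, nor whether the libraries came from separate litters, so any spread given here may be partly technical. The reads totalled 7269505 in replicate 2, with 3839984 on miRNA genes, and 8150499 in replicate 1, with 4327424 on miRNA genes. With 1 group there was no difference between conditions to test. Levels are given in CPM, the counts scaled to the same total of miRNA gene reads in each library (1000000), and are not divided by length, since a read of this assay covers about a whole mature miRNA.

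Hox genes encode transcription factors that pattern the body axis, and within a cluster the genes at the 3′ end are active further forward than those at the 5′ end. The miRNAs inside the clusters are often transcribed with their Hox neighbours. They repress target mRNAs through the seed, bases 2 to 8 of the mature miRNA, and Hox mRNAs are among their known targets. The best known of these is Hoxb8, which miR-196 cleaves at a nearly fully complementary site.

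The mature sequences sort the 6 genes into 3 groups by seed. They are taken from RefSeq (GRCm38.p6, the assembly of mm10), in which all 6 genes were found, and the seed is in capitals. The miR-10 and miR-196 5p miRNAs are shown because they differ so little, and the 3p miRNAs of both miR-196a genes because they are where those genes can be told apart.
miR-10a-5p: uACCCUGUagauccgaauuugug
miR-10b-5p: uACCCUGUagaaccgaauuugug
miR-196a-5p: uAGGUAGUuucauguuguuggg
miR-196b-5p: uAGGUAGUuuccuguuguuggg
miR-196a-1-3p: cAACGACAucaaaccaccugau
miR-196a-2-3p: uCGGCAACaagaaacugccuga
miR-615-5p: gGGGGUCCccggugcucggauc
miR-615-3p: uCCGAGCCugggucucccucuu
With positions counted from 1 at the 5′ end, miR-10a-5p and miR-10b-5p differed at 1 of 23 bases (U12A), and miR-196a-5p and miR-196b-5p at 1 of 22 (A12C). Neither difference touches the seed. Mir196a-1 and Mir196a-2 both encode the same miR-196a-5p, whereas their 3p miRNAs differ at 17 of 22 bases. No other mouse gene in the RefSeq table had a mature miRNA with the seed of any of the 6 genes, on either arm. The counts are per gene and do not separate the 5p from the 3p miRNA.

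The known target site of miR-196 in the 3′ UTR of Hoxb8 is shown for its near-complete match to miR-196a-5p. It lies at chr11:96284888-96284909 on the plus strand (mm10, transcript sequence from GENCODE M21), and capitals mark the stretch opposite the seed.
Hoxb8 site: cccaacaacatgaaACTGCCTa
Of the 22 bases, 21 form Watson-Crick pairs with miR-196a-5p and 1 forms a G:U pair. Hoxb8 mRNA was not measured in these small RNA libraries.

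Mir10a, Mir10b and Mir615 lie among Hox genes of groups 3 to 6, and the miR-196 genes among those of groups 9 to 13. Mir10a (chr11:96317165-96317274, plus strand) overlaps no other annotated gene and lies in HoxB between Hoxb5 and Hoxb4, 992 bases before Hoxb4. Mir10b (chr2:74726070-74726137, plus strand) lies in HoxD, in introns of both Hoxd4 and Hoxd3. Mir615 (chr15:103014910-103015001, plus strand) lies in HoxC in an intron of Hoxc5, between Hoxc6 and Hoxc4. Mir196b (chr6:52230081-52230165, minus strand) lies in HoxA 1031 bases after Hoxa10, where some annotated Hoxa9 transcripts have an exon. Mir196a-2 (chr15:102973350-102973434, plus strand) lies between Hoxc10 and Hoxc9, 1456 bases after Hoxc10, and also within a long annotated intron of Hoxc5. Mir196a-1 (chr11:96265164-96265265, plus strand) overlaps no other gene and lies 6191 bases before Hoxb9, with Hoxb13 on its other side. The only other miRNA gene annotated inside the 4 clusters, Gm44463 in HoxD, has no entry in the tables.

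**Figure D1:**
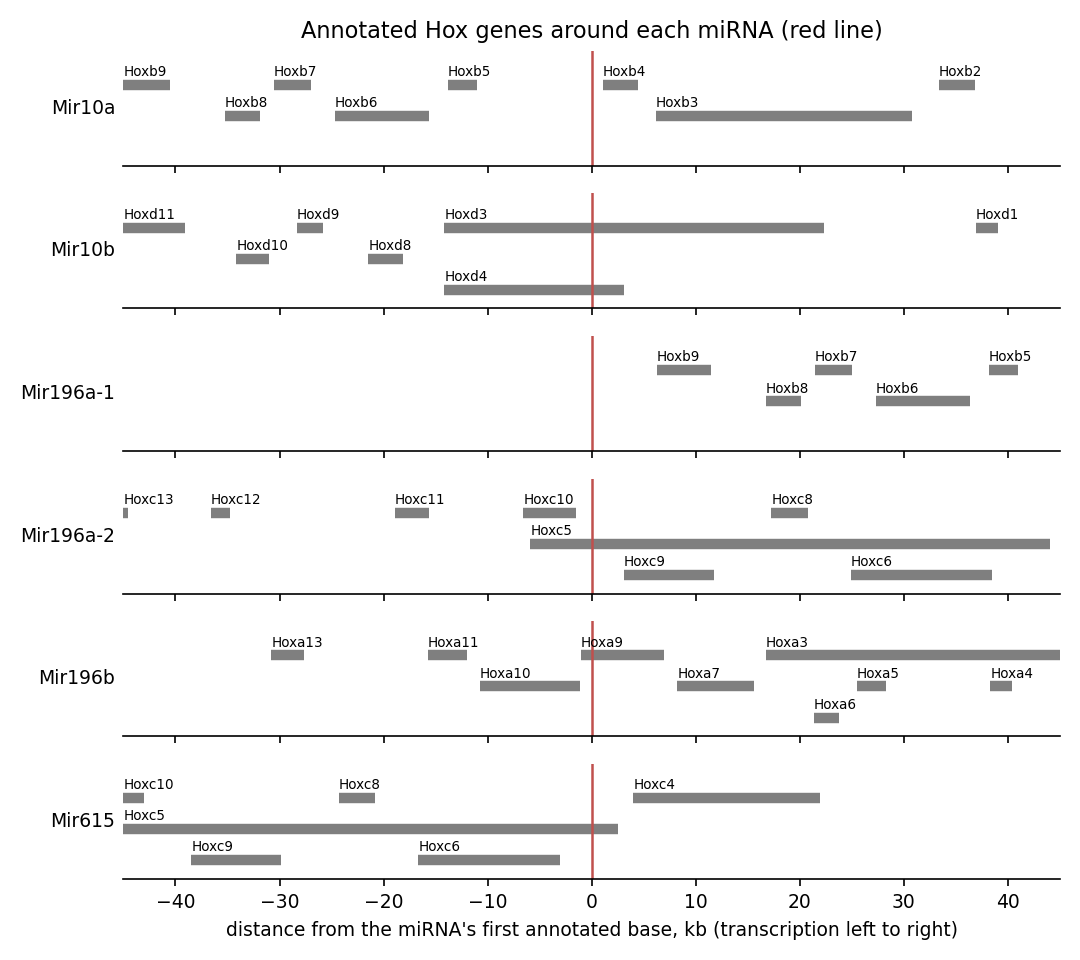
Annotated Hox genes (grey bars, GENCODE M21) around each of the 6 miRNA genes, as distance in kb from the first annotated base of the miRNA (red line), with transcription running left to right. Mir10a and Mir10b lie at Hoxb4 and Hoxd4, Mir615 lies between Hoxc6 and Hoxc4, and the 3 miR-196 genes lie near the Hox genes of groups 9 and 10.

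Among reads assigned to genes, the Hox cluster miRNAs were represented almost entirely by the pair of miR-10 genes. The tables hold reads with several map positions outside the genes, and the level of miR-196a, whose 5p miRNA comes from 2 genes, is therefore uncertain, as are the sum and shares that include it. Together the 6 genes reached 2323 CPM in replicate 2 and 2076 CPM in replicate 1 (mean 2199.75 ± 175 CPM, SD, n = 2), which is 0.220% ± 0.0175 of all reads assigned to miRNA genes. Mir10a and Mir10b held 94.96% of that sum in replicate 2 (exact 95% binomial interval 94.5 to 95.4) and 93.8% in replicate 1 (93.3 to 94.3). All intervals and floors here cover only counting error, as PCR copies of a molecule were not told apart. Detection was set at 10 or more counts in each library. By it 4 of the 6 genes were detected, against 17.1% of all 1973 genes, and the miR-196a genes were the exceptions. The median of the 6 mean levels was 61.1 CPM, against 0 CPM over all genes, while the 4 detected members had a median of 466 CPM against 104 CPM for the 337 detected genes.

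The heart label was checked against a list of heart muscle miRNAs, which was carried by those hosted in myosin genes. The list, led by Mir208b of Myh7, had a summed level of 79365 CPM in replicate 2 and 75763 CPM in replicate 1, or 34.2 and 36.5 times the level of the 6 Hox cluster miRNAs. Of its 9 genes, 8 are in the tables and 5 were detected. Mir208b had 66822 CPM in replicate 2 and 66314 CPM in replicate 1. The miR-1 and miR-133 genes, which also mark muscle, were near the floor, with 10 counts in replicate 2 and 13 in replicate 1 for Mir1a-1, 12 and 12 for Mir133a-1, 15 and 9 for Mir133b, 4 and 11 for Mir1b, and 5 and 2 for Mir133a-2. However, miR-1a and miR-133a are each made from more than 1 gene, and reads that map to several places are not in these counts. The low counts therefore set no upper limit on miR-1a and miR-133a in the heart. Whether Mir133b and Mir1b lost reads in this way was not tested.

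Mir10a, the HoxB member of the miR-10 family, had 5773 counts (1503 CPM) in replicate 2 and 4251 counts (982 CPM) in replicate 1. Its mean was 1243 ± 368 CPM (SD, n = 2), and it ranked 69 among all genes in replicate 2 and 80 in replicate 1. Its share of the 6 genes was 64.7% in replicate 2 and 47.3% in replicate 1.

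Mir10b, the HoxD member with the same seed, had 2699 counts (703 CPM) in replicate 2 and 4175 counts (965 CPM) in replicate 1. The mean was 834 ± 185 CPM, with rank 91 in replicate 2 and rank 81 in replicate 1. In replicate 1 Mir10a and Mir10b stood side by side, and in replicate 2 they were well apart.

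Mir196b, the HoxA member of the miR-196 family, had 323 counts (84.1 CPM) in replicate 2 and 479 counts (111 CPM) in replicate 1, a mean of 97.4 ± 18.8 CPM. Mir10a lay 17.9 times above it in replicate 2 and 8.87 times in replicate 1. Its rank of 182 in replicate 2 and 167 in replicate 1 placed it well inside the detected genes.

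Mir615, the HoxC member with seeds of its own, had 121 counts (31.5 CPM) in replicate 2 and 78 counts (18.0 CPM) in replicate 1. Its mean was 24.8 ± 9.54 CPM. It lay below Mir196b in both libraries, by 2.67 times in replicate 2 and 6.14 times in replicate 1. Mir615 thus had the lowest level of the detected members. It lies, like the miR-10 genes, among Hox genes of groups 3 to 6, and a link between position and level was not tested.

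The miR-196a genes were at the limit of detection. Mir196a-1 in HoxB had 2 counts in replicate 2 and 0 in replicate 1, and Mir196a-2 in HoxC had 4 counts in replicate 2 and 1 in replicate 1. A count of 0 allows up to 3 counts, or 0.693 CPM in replicate 1, and 3 counts correspond to 0.781 CPM in replicate 2. The ratio for Mir196a-2, 4.51 with an exact 95% counting interval of 0.446 to 222, is too wide to read a direction from. Reads that map to several places made up 30.1% of replicate 2 and 30.6% of replicate 1. The Mir196a-1 and Mir196a-2 hairpins share a run of 22 bases, the length of miR-196a-5p, while the hairpins of Mir10a and Mir10b share at most 15 bases in a row and that of Mir196b at most 12 with any annotated mouse miRNA hairpin. How many of the reads mapping to several places were miR-196a was not tested, so the counts of these genes set no upper limit on miR-196a-5p in the heart.

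By mean CPM of assigned reads the order was Mir10a, Mir10b, Mir196b, Mir615, Mir196a-2 and Mir196a-1. The place of the miR-196a genes in it is uncertain, as reads that mapped to both are not counted. The gaps from Mir10b to Mir196b and from Mir196b to Mir615 held in both libraries, with no overlap of their ranges. Mir10a and Mir10b did not differ beyond their spread: the ratio of Mir10a to Mir10b was 2.14 (exact 95% counting interval 2.04 to 2.24) in replicate 2 and 1.02 (0.975 to 1.06) in replicate 1, with a mean of 1.58 ± 0.792 (SD, n = 2). The ranges of the miR-196a genes overlapped. None of the 6 genes had a read on the opposite strand in either library, so their counts were the same on the counted strand and with both strands together.

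**Figure D2:**
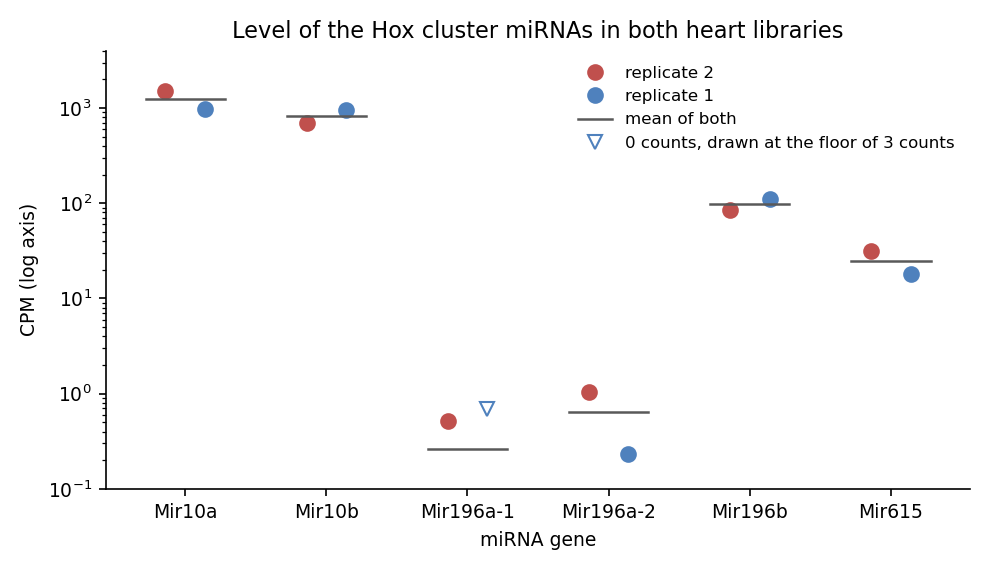
Level of each Hox cluster miRNA in CPM (log axis) in replicate 2 (red) and replicate 1 (blue), with the mean of both as a grey line. The miR-10 genes sit between 703 and 1503 CPM, Mir196b between 84.1 and 111, Mir615 between 18.0 and 31.5, and the miR-196a genes at or near the floor of 3 counts (open triangle for 0 counts).

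The 4 detected members moved in opposite directions between the libraries. Mir10a and Mir615 were higher in replicate 2, by 1.53 times (exact 95% counting interval 1.47 to 1.59) and 1.75 times (1.30 to 2.35). Mir10b and Mir196b were lower in replicate 2, with ratios of 0.729 (0.694 to 0.765) and 0.760 (0.658 to 0.877). All 4 intervals leave out 1, which says that counting error alone does not span the gap, not that the embryos differ. Taking a 1.5-fold difference as the mark, 2 of the 4 passed it, both upward, against 12.8% of the 337 detected genes in either direction. Of those genes 36 (10.7%) were higher in replicate 2 and 7 (2.08%) were lower. Mir615 kept its place past this mark under the other scalings, whereas Mir10a sat on it, at 1.46 with TMM factors and 1.41 with median-of-ratios size factors. No member was past it in the downward direction. The directions of all 4 were the same under every scaling tried.

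The ratios were large beside the usual gap between these libraries. The absolute log2 ratio had a median of 0.54 over the 4 members and 0.23 over all 337 detected genes. Ordered from the highest ratio down, Mir615 was gene 25 and Mir10a gene 33 of 337. Ordered from the lowest ratio up, Mir10b was gene 19 and Mir196b gene 26. These places describe a pair of libraries and carry no test.

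**Figure D3:**
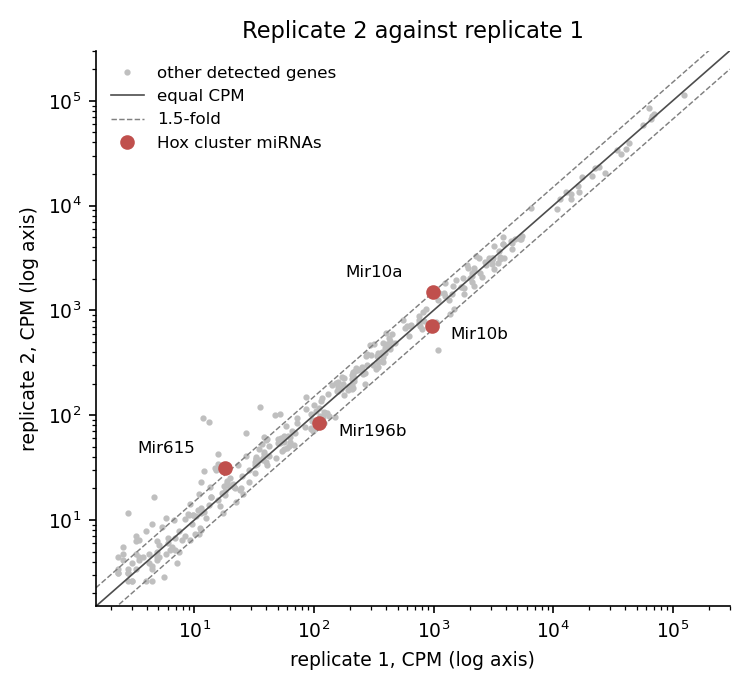
CPM in replicate 2 (vertical, log axis) against replicate 1 (horizontal, log axis) for the 337 genes with at least 10 counts in each library. Solid and dashed lines mark equal CPM and 1.5-fold differences; Mir10a and Mir615 (red) lie at or above the upper dashed line, and Mir10b and Mir196b lie below the solid line.

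Mir10a and Mir10b share a 5p seed, and their sum was steadier than either gene. For any pair of genes the ratio of the sums lies between their own ratios, and here those lay on opposite sides of 1. A steadier sum was therefore likely by arithmetic. A link to the shared seed was not tested. The sum came to 8472 counts (2206 CPM) in replicate 2 and 8426 counts (1947 CPM) in replicate 1. The ratio of the sums was 1.13 (1.099 to 1.17), and 1.05 with median-of-ratios size factors. Without Mir10a the other 5 genes together had 820 CPM in replicate 2 and 1094 CPM in replicate 1. Mir10b lay 8.36 times above Mir196b in replicate 2 and 8.72 times in replicate 1, the steadiest ratio among the neighbouring members, a comparison chosen after the values were seen. For the miR-196 seed the 3 genes summed to 329 counts in replicate 2 and 480 counts in replicate 1, of which Mir196b gave 98.2% and 99.8% of the assigned reads. Reads of miR-196a-5p that mapped to both of its genes are not in these sums, so the shares do not describe all miRNAs with this seed.

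Both seeds have relatives outside the Hox clusters that had far more reads assigned to genes. The miR-99/100 miRNAs resemble miR-10 over much of their length but have a different seed, as miR-100-5p shows, again with the seed in capitals.
miR-100-5p: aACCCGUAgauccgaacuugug
It shares a run of 11 bases with miR-10a-5p, and their seeds differ at 3 of 7 positions. Mir99a, Mir99b and Mir100 together had 78875 CPM in replicate 2 and 76237 CPM in replicate 1, which is 35.8 and 39.2 times the summed miR-10 genes. The seed of miR-196, AGGUAGU, is found at bases 3 to 9 in 8 of 9 let-7 and miR-98 mature miRNAs, whose own seed is GAGGUAG. The 10 let-7 and Mir98 genes in the tables together had 92480 CPM in replicate 2 and 106562 CPM in replicate 1, or 1079 and 961 times the summed miR-196 genes. All 10 were detected and all 10 were lower in replicate 2, with a median ratio of 0.851, where 136 of the 337 detected genes were lower. Several let-7 miRNAs are made from more than 1 gene, and their counts are subject to the same limit as miR-196a. The summed miR-196 genes lack the miR-196a-5p reads that mapped to both of its genes. The multiples of 1079 and 961 therefore hold for assigned reads only and do not compare all miRNAs of the 2 families.

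Markers of other cell types moved between the libraries too, and their part in the ratios of the Hox cluster miRNAs was not tested. The epithelial list had 10 of 10 genes detected, all 10 higher in replicate 2, where 201 of the 337 detected genes were higher, with a summed level of 1339 CPM in replicate 2 and 753 CPM in replicate 1 and none at 0. The erythroid list, Mir451a and Mir144, had a sum of 489 CPM in replicate 2 and 1184 CPM in replicate 1. The smooth muscle list, Mir143 and Mir145a, had a sum of 87098 CPM in replicate 2 and 64494 CPM in replicate 1. In the neuronal list 3 of 8 genes in the tables were detected, and the sum was 209 CPM in replicate 2 and 157 CPM in replicate 1. Of the 3, 1 was higher in replicate 2, Mir137 (85.7 CPM against 13.2 CPM in replicate 1). The other 2 were lower, Mir128-1 (108 against 121 CPM) and Mir128-2 (14.8 against 22.4 CPM). Mir124a-1, Mir124a-2, Mir124a-3, Mir9-2 and Mir9-3 were at 0. As several of these miRNAs are made from more than 1 gene, their counts are subject to the same limit as miR-196a. The skeletal muscle miRNA Mir206 had 34.1 CPM in replicate 2 and 15.7 CPM in replicate 1. The white blood cell list (405 CPM in replicate 2, 493 CPM in replicate 1; 3 of 3 genes in the tables detected), the liver and gut list (471 and 518 CPM; 5 of 5) and the endothelial Mir126a (75015 and 69932 CPM) moved less. In tissue RNA, more cells that hold a miRNA and more of it per cell cannot be told apart.

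**Figure D4:**
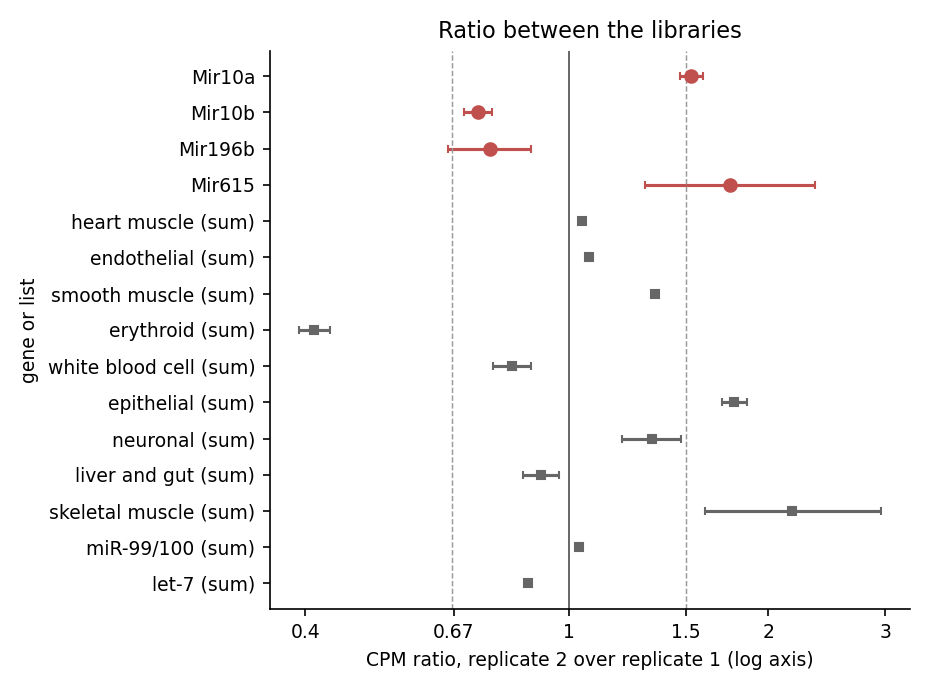
CPM ratio of replicate 2 over replicate 1 (log axis) for the 4 detected Hox cluster miRNAs (red circles) and for the summed level of each comparison list (grey squares), with exact 95% counting intervals and dashed lines at 1.5-fold. Mir10a (1.53) and Mir615 (1.75) lie above 1, as do 7 of the 11 lists, and Mir10b (0.729) and Mir196b (0.760) lie below 1, as do the other 4 lists.

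The genes nearest to each detected member in level over the 2 libraries, by distance between log2(CPM + 1) values, came from other loci. Nearest to Mir10a were Mir101b (1450 CPM in replicate 2 and 1112 CPM in replicate 1) and Mir382 (1269 and 1087 CPM). Nearest to Mir10b were Mir181b-2 (777 and 1058 CPM) and Mir320 (659 and 807 CPM). Mir669c (87.8 and 103 CPM) and Mir505 (84.9 and 121 CPM) lay nearest to Mir196b. Mir338 (31.8 and 18.0 CPM) and Mir206 lay nearest to Mir615. With 2 libraries this likeness is one of level only.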

How the data were processed

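Assembly mm10 and annotation GENCODE M4 are named in the deposited descriptions, with 1 table per library. The aligner and counting program were not given in the sources used here. The authors deposited whole-number counts per miRNA gene, for both strands together and for each strand alone, with separate lines for reads outside genes. These lines were left out of totals. Of all reads, 52.8% in replicate 2 and 53.1% in replicate 1 were assigned to genes on the counted strand, which held 95.4% and 95.3% of gene reads and is the strand named by the rule for the 6 genes. The counts were scaled to CPM here. Names and positions came from GENCODE M21, on the same assembly, which named 1894 of 1973 identifiers. Ratios carry exact 95% binomial intervals, run on simulated data with known ratios. The simulated counts held counting error only, so that check says nothing about PCR copies or spread between libraries. No test was possible with 1 group.

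The genes named are the 6 members, the 2 genes nearest in level to each detected member, other miRNA genes within the Hox clusters or with the same seed, and the miR-99/100, let-7 and marker lists. Members and lists were chosen with earlier results of these data known. Alternatives were the unstranded counts, other denominators, TMM factors (edgeR 4.0.16), size factors (DESeq2 1.42.0, R 4.3.3), other count minimums and each replicate left out. Remaining steps ran in Python 3.11.15 (scipy 1.17.1, numpy 2.4.6, pandas 2.3.3, matplotlib 3.10.9).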

Additional observations from a re-analysis of the deposited data

How the results depend on the processing

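Of 57 levels, shares and ratios recomputed with unstranded counts, other denominators or other scalings, 48 stayed within the SD over replicates or the counting interval or, for ratios past 1.5-fold, stayed past it. Some of these could hardly do otherwise, so the count is no measure of stability. With no opposite-strand reads, the miR-10 share and the ratio of Mir10a to Mir10b were identical in unstranded counts. The miR-196a genes had SDs (0.368 and 0.573 CPM) about as large as their means (0.260 and 0.636 CPM). Levels depended on the denominator by construction: scaled to all reads instead of gene reads, the 6 genes summed to 1165, Mir10a to 658, Mir10b to 442, Mir196b to 51.6 and Mir615 to 13.1, and without the most abundant gene in the total the sum was 2498 CPM. The ratio of replicate 2 to replicate 1 for Mir10a fell short of 1.5 with TMM factors (1.46) and with median-of-ratios size factors (1.41), and the size factors put Mir10b at 0.673. They shifted the median log2 ratio of all detected genes by -0.11, and the share of genes past 1.5-fold that were higher in replicate 2 was 83.7% with total counts, 72.1% with TMM factors and 61.7% with size factors. The number of members detected was 5 at a minimum of 1 count, 4 at 5 counts and 3 at 100 counts. The ratio of Mir10a to Mir10b was 2.14 without replicate 1 and 1.02 without replicate 2, so its size rests on replicate 2. With 2 libraries, leaving out either moves a mean by less than its SD by arithmetic, which says nothing about stability. No paired analysis was possible because there is 1 group. The miR-196a genes had at most 4 counts, too few for a ratio, and the counts of Mir615 set the width of its interval.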
